A study of Mus musculus with 12 samples.

Results

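The mitochondrial ribosomal protein genes are the nuclear genes whose symbols begin with Mrpl (large subunit) or Mrps (small subunit). They were selected as the gene probes whose name column on the array matches that pattern followed by a digit. The rule uses no measured value, but the family was picked with earlier results of these data known. The pattern took 116 of the 41174 gene probes on the array, and these stand for 76 genes. Of these, 47 genes have 1 probe and 29 have more.

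The RNA came from the quadriceps, and each mouse had its own one-colour Agilent array (12 in all). The exercised group was 6 mice trained for 4 weeks on a motorized treadmill, with muscle taken 3 h after the last bout, and the sedentary group was 6 untrained mice. Effects of the weeks of training and of the last bout therefore cannot be told apart here. All 12 were male C57BL/6J mice of 13 weeks, and no transgene or other treatment is named in the labels. The arrays lay on 3 slides: slide 1 held 1 exercised and 3 sedentary arrays, slide 2 held 3 and 1, and slide 3 held 2 and 2. The titles also place the mice in 2 numbered sets of unstated meaning.

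Mitochondria keep their own ribosome, which translates the few mRNAs of the mitochondrial genome, all of them for inner-membrane proteins of oxidative phosphorylation. Its ribosomal RNAs come from the mitochondrial genome, whereas its proteins are encoded in the nucleus, made in the cytosol and imported. Some of these proteins have counterparts in the bacterial ribosome and others exist only in mitochondria. Endurance training is known to raise the mitochondrial content of muscle, and the coactivator Ppargc1a, a regulator of mitochondrial genes, is known to be induced by a bout of exercise.

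By structural class, 30 of the 76 genes encode large-subunit proteins with a bacterial counterpart, 19 large-subunit proteins specific to mitochondria, 17 small-subunit proteins with a bacterial counterpart and 9 small-subunit proteins specific to mitochondria. Mrps18a and Mrps30 are counted with the large subunit, where their proteins sit. The classes come from fixed lists, which give Mrps18b and Mrps18c a bacterial counterpart and count Mrps18a as specific to mitochondria. The counts by class depend on such choices. The remaining gene, Mrps36, keeps its ribosomal symbol although its protein is now known as a component of the 2-oxoglutarate dehydrogenase complex. Levels below are log2 signal relative to the 75th percentile of the same array, so that 1 unit is a factor of 2, and a level of one gene's probe cannot be set against that of another.

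The promoters are shown first because the nuclear respiratory factor NRF1 and ETS factors such as GABPA are known to act at many genes for mitochondrial proteins. RefSeq windows on GRCm38.p6, from 250 bases before to 50 bases after the gene start, were found for 67 of the 76 genes (73 windows). The 3 windows below belong to the named members that hold an NRF1 core, GCATGCGC. They read 5′ to 3′ on the gene's strand, with the NRF1 core and the ETS core CCGGAAG, on either strand, in capitals.
Mrpl33, chr5:31613701-31614000, plus strand: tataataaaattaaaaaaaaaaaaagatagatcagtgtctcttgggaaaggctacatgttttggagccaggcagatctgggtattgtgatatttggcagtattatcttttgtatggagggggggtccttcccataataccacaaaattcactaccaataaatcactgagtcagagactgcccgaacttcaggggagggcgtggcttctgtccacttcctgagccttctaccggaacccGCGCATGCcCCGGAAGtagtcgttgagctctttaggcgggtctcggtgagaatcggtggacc
Mrpl9, chr3:94443086-94443385, plus strand: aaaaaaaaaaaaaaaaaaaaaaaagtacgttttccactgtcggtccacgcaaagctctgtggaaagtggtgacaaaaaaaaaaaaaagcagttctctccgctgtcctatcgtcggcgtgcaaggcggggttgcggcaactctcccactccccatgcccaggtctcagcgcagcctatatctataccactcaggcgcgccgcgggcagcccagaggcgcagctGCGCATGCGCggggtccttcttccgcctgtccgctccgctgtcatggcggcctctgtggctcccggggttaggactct
Mrps18b, chr17:35916391-35916690, minus strand: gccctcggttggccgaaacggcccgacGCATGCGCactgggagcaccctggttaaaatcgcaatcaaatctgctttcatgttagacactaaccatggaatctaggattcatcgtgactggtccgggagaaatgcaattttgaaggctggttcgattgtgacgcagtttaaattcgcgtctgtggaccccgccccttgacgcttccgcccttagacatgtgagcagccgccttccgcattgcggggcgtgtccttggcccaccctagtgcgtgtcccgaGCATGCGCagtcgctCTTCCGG

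In the Mrpl33 window the 2 cores lie next to the gene start, at positions -12 (NRF1) and -3 (ETS). In the Mrpl9 window NRF1 cores on the 2 strands overlap, at -26 and -28. The Mrps18b window has NRF1 cores at -223 and 29 and an ETS core at 44. In all, an NRF1 core was found in 10.96% of the members' windows, against 4.64% of the windows of all genes in the table and 2.71% of all 32851 windows. The ETS core was found in 32.88%, against 15.79% and 8.86%. The YY1 core AAGATGG was found in 17.81%, against 6.78% and 6.34%. At least one of the NRF1 and ETS cores stood in 28 of 73 windows (38.36%), against 19.45% of windows of genes in the table. In the windows of the cytosolic ribosomal protein genes that share was 39.68%, and in those of complex I genes 23.81%. Taken singly, in the same order, the NRF1 core was in 4.76% and 11.9% of these windows. The ETS core was in 34.92% and 11.9%, and the YY1 core in 17.46% and 16.67%. Each of these 3 shares of the members was thus close to that of at least 1 of these families. The ERR element TCAAGGTCA was in 0 of 73 windows, the SP1 box GGGCGG in 52.05% against 59.72% of the windows of genes in the table, and the MYC E-box CACGTG in 9.59% against 9.7%. All 6 motifs were searched on both strands. The median GC content was 58.33% in the members' windows and 60.33% in those of genes in the table. These matches describe letters in a window and were not tested.

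The probes are 60 bases long. Those of Mrpl9 and Mrps31, 2 of the 4 members with an unadjusted p below 0.05, are shown as the stretches of transcript that were measured. Positions are those of the array annotation (mm9), and the Mrps31 probe spans 1349 bases of genome because it crosses an exon junction.
Mrpl9, chr3:94250591-94250650: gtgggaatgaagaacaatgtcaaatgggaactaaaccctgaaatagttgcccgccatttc
Mrps31, chr8:23538340-23539688: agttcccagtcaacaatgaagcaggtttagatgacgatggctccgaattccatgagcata

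The members were well measured. Of the 116 probes, 113 passed the filter (well above background on at least 6 of 12 arrays), 112 were above background on all 12 arrays, and none was saturated. The 3 that did not pass, 1 probe each of Mrpl11, Mrpl41 and Mrpl52, were above background on 0 of 12 arrays, and each of these genes has another probe that passed. All 76 genes therefore entered the gene table, each through its brightest probe, and every one of these probes was above background on all 12 arrays. Of the member probes, 112 to 113 were detected on each array of both groups. The 75th percentile of the signal was 179.5 to 230.1 in exercised arrays and 167.2 to 237 in sedentary arrays (two-sided exact permutation p = 0.229).

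No mitochondrial ribosomal protein gene differed past the threshold between exercised and sedentary muscle. In limma, with Benjamini-Hochberg adjustment over all 16461 entries of the gene table, 0 of the 76 genes were called higher and 0 lower in exercised muscle at an adjusted p below 0.05, whereas 604 entries of the whole table were called (3.67%), 299 higher and 305 lower. At an unadjusted p below 0.05 there were 4 members, against 16.2% of the table. Groups that did not overlap were seen for 0 members, against 3.02% of the table. The differences of the 76 genes ran from -0.14 to 0.20 log2, with 37 above and 39 below 0 (42.1% of the table was above 0). Their median was -0.0028 log2, and that of the whole table -0.03.

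**Figure D1:**
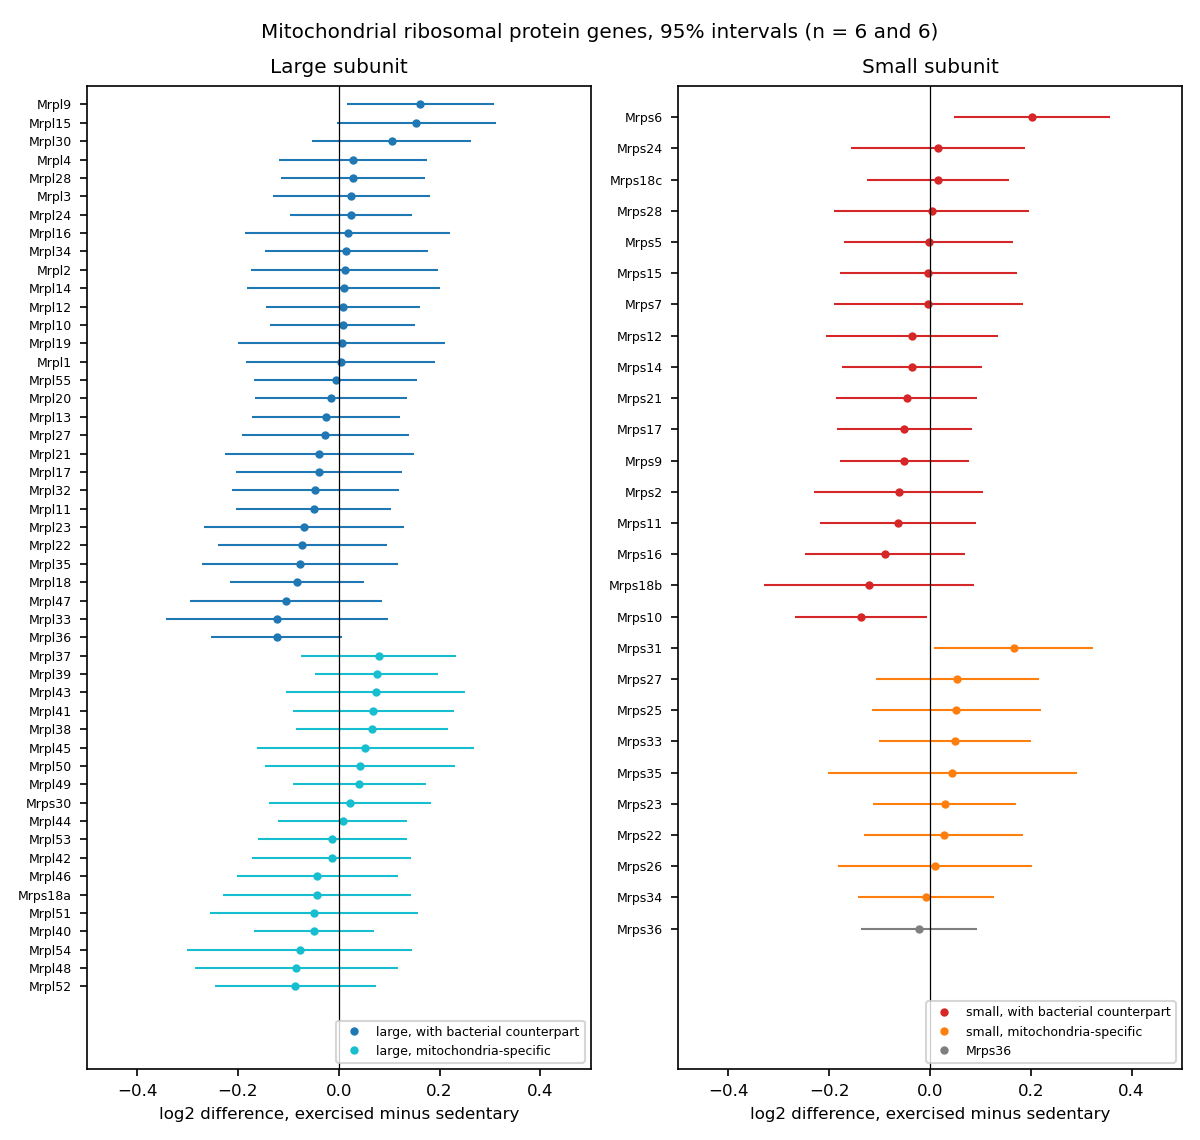
Log2 difference, exercised minus sedentary, of the 76 mitochondrial ribosomal protein genes (horizontal axis; points, with 95% intervals from limma as lines), by subunit and structural class. All points lie between -0.14 and 0.20, and 0 genes passed the adjusted threshold.

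The precision was enough to bound the response. The 95% interval of the difference lay within 1.2-fold in either direction for 62 of 76 genes and within 1.3-fold for 76, whereas 27.92% of the whole table lay within 1.2-fold and 52.97% within 1.3-fold. The highest upper bound was 1.28-fold, for Mrps6, and the lowest lower bound 0.788-fold, for Mrpl33. The arrays of a group varied by a median SD of 0.113 log2 for the members, from 0.056 for Mrps36 to 0.204 for Mrps35, against 0.187 for the whole table. The table also holds probes above background on as few as 6 arrays. The median SD was 0.140 for complex I genes and 0.142 for cytosolic ribosomal protein genes. For mitochondrial ribosome subunits named otherwise on the array it was 0.110. With slide as a block the counts were 61 genes within 1.2-fold, 73 within 1.3-fold and 76 within 1.5-fold. These are bounds on RNA per array signal at one time point. In whole muscle, fewer cells of a type and less RNA per cell cannot be told apart.

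**Figure D2:**
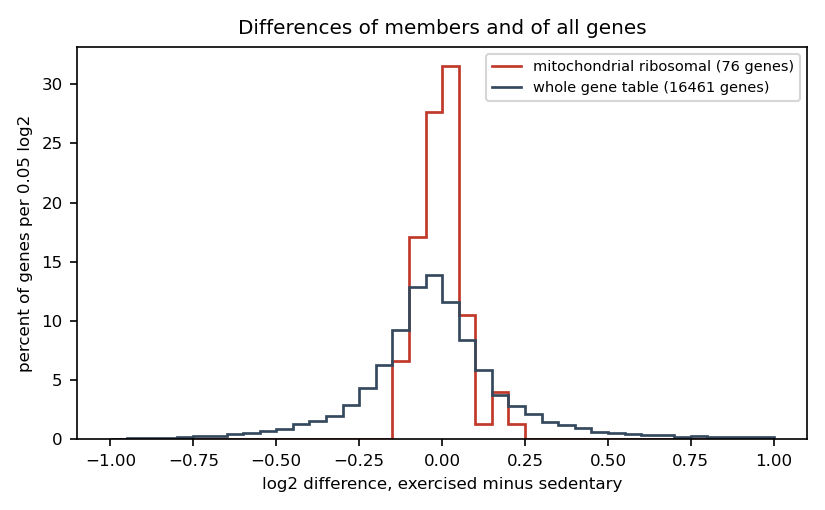
Percent of genes (vertical axis) by log2 difference, exercised minus sedentary, in bins of 0.05 (horizontal axis), for the 76 mitochondrial ribosomal protein genes and the 16461 entries of the gene table; 38 entries below -1 and 112 above 1 are outside the plot. The members lie between -0.14 and 0.20, inside the spread of the table.

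Among small-subunit proteins with a bacterial counterpart, 4 of 17 genes lay above 0 and 13 below, with a median of -0.04 log2. That split moved with slide as a block, to 9 of 17 above 0 and a median of 0.00059 log2. Values of single genes below are from the fit without slide unless stated otherwise. Mrps6, whose bacterial counterpart binds the platform of the small subunit, had levels of 3.54, 3.67 and 3.75 (lowest, median, highest) in exercised and 3.28, 3.41 and 3.63 in sedentary muscle. Its exercised arrays were mostly the higher ones, but the ranges overlapped. The difference was 0.20 ± 0.07 log2 (SE), the largest among the 76 genes (adjusted p = 0.161). Its probe lies at chr16:92112223-92112282 (mm9), and the gene's other probe differed by 0.118 log2 less. Mrps10, a protein of the small-subunit head, had 3.50, 3.68 and 3.79 in exercised and 3.71, 3.81 and 3.89 in sedentary muscle. Its exercised arrays were mostly lower, with overlap, by -0.14 ± 0.06 log2 (adjusted p = 0.283); the probe lies at chr17:47515453-47515512 (mm9).

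The other named genes of that class had lower means in exercised muscle, and none passed. Mrps16, in which mutations cause a human mitochondrial disease, had 5.52, 5.65 and 5.76 in exercised and 5.58, 5.76 and 5.90 in sedentary muscle (-0.09 log2, adjusted p = 0.622). Mrps11, a platform protein, had 0.92, 1.04 and 1.23 in exercised and 0.92, 1.15 and 1.20 in sedentary muscle (-0.06 log2, adjusted p = 0.731). Mrps18b, one of several mammalian relatives of a single bacterial protein, had -0.19, 0.08 and 0.17 in exercised and -0.08, 0.15 and 0.45 in sedentary muscle (-0.12 log2, adjusted p = 0.610). For each of these the exercised and sedentary ranges overlapped.

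Among the 9 small-subunit proteins specific to mitochondria, 8 lay above 0 and 1 below, with a median of 0.04 log2 and 0 called. With slide as a block all 9 lay above 0, with a median of 0.05 log2. Mrps31 had 3.90, 3.99 and 4.15 in exercised and 3.67, 3.80 and 4.01 in sedentary muscle, a difference of 0.17 ± 0.07 log2 (adjusted p = 0.275). The 2 highest sedentary arrays lay inside the exercised range. Mrps27, a pentatricopeptide repeat protein, had 1.18, 1.31 and 1.55 in exercised and 1.16, 1.28 and 1.39 in sedentary muscle (0.05 log2, adjusted p = 0.792). Mrps25 had 1.96, 2.17 and 2.32 in exercised and 1.99, 2.09 and 2.24 in sedentary muscle (0.05 log2, adjusted p = 0.808).

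Large-subunit proteins with a bacterial counterpart split evenly in the fit without slide, 15 above and 15 below 0 of 30. Their median was -0.0011 log2. The split was not even with slide as a block, where 24 of 30 lay above 0 and the median was 0.03 log2. Mrpl9 had 1.42, 1.63 and 1.75 in exercised and 1.35, 1.45 and 1.57 in sedentary muscle. Most exercised arrays stood above the sedentary ones, with overlap at the lowest exercised array, and the difference was 0.16 ± 0.07 log2 (adjusted p = 0.240). Mrpl15 had 2.10, 2.18 and 2.33 in exercised and 1.85, 2.04 and 2.20 in sedentary muscle (0.15 ± 0.07 log2, adjusted p = 0.325), and Mrpl30 had 3.86, 3.97 and 4.10 in exercised and 3.71, 3.83 and 4.05 in sedentary muscle (0.10 ± 0.07 log2, adjusted p = 0.540).

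On the lower side, Mrpl36, a very small protein, had 3.66, 3.81 and 3.88 in exercised and 3.83, 3.93 and 4.00 in sedentary muscle (-0.12 ± 0.06 log2, adjusted p = 0.338). Mrpl33 had 6.37, 6.75 and 7.01 in exercised and 6.65, 6.83 and 6.93 in sedentary muscle (-0.12 ± 0.10 log2, adjusted p = 0.625), its exercised arrays spreading on both sides of the sedentary ones. Mrpl47, which sits near the exit of the nascent chain, had 0.95, 1.14 and 1.32 in exercised and 1.08, 1.23 and 1.51 in sedentary muscle (-0.10 log2, adjusted p = 0.632).

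Among the 19 large-subunit proteins specific to mitochondria, 10 lay above and 9 below 0, with a median of 0.01 log2. Mrpl37 stood highest, with 2.91, 3.08 and 3.20 in exercised and 2.87, 2.99 and 3.10 in sedentary muscle (0.08 log2, adjusted p = 0.654). Mrpl52 stood lowest, with 4.38, 4.59 and 4.75 in exercised and 4.52, 4.69 and 4.79 in sedentary muscle (-0.09 log2, adjusted p = 0.639). The class thus spanned less than 0.2 log2 in all in the fit without slide. With slide as a block 15 of the 19 genes lay above 0, with a median of 0.05 log2.

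**Figure D3:**
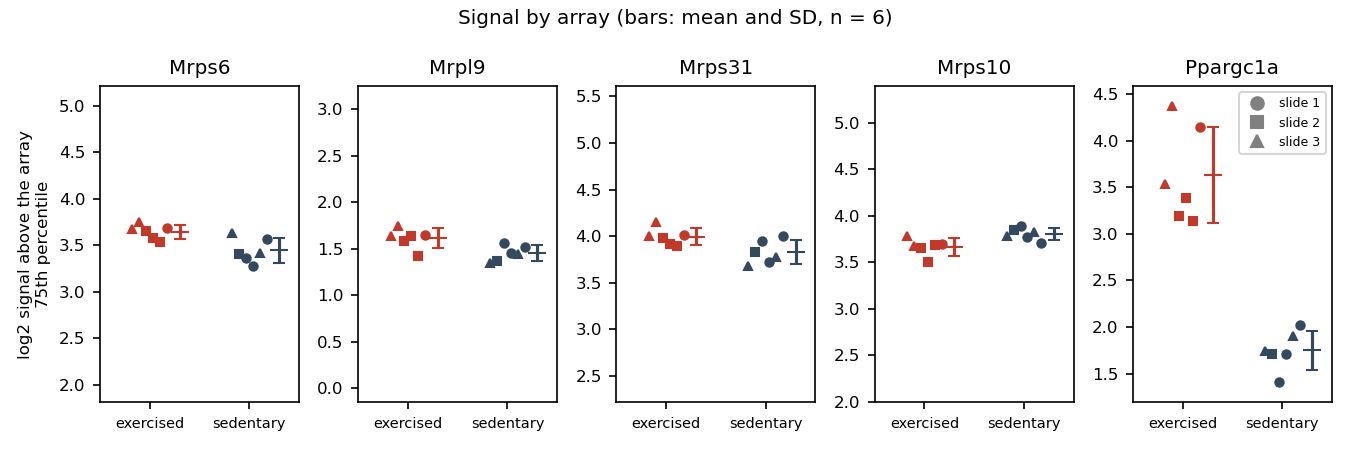
Log2 signal relative to the array's 75th percentile (vertical axis, the same length of scale in each panel) for the 4 members with an unadjusted p below 0.05 and for Ppargc1a, by group; each point is 1 array, its shape the slide, and bars are mean and SD (n = 6). The groups overlap for all 4 members, whereas the lowest exercised Ppargc1a array, 3.14, is above the highest sedentary one, 2.02.

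Different probes of a gene gave a check of these sizes. Of the 27 genes with 2 or more kept probes, 13 had differences of both signs, and the median spread between a gene's probes was 0.068 log2. Mrpl1 had the widest spread, 0.337 log2 over 3 probes, followed by Mrps5 with 0.185 and Mrps17 with 0.171 (chosen after their values were seen). When every probe was tested singly, 3.32% of 22916 probes were called and 0 of the members' probes. A sequence match to the polyadenylation signal was present in 17 of the 116 probes.

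**Figure D4:**
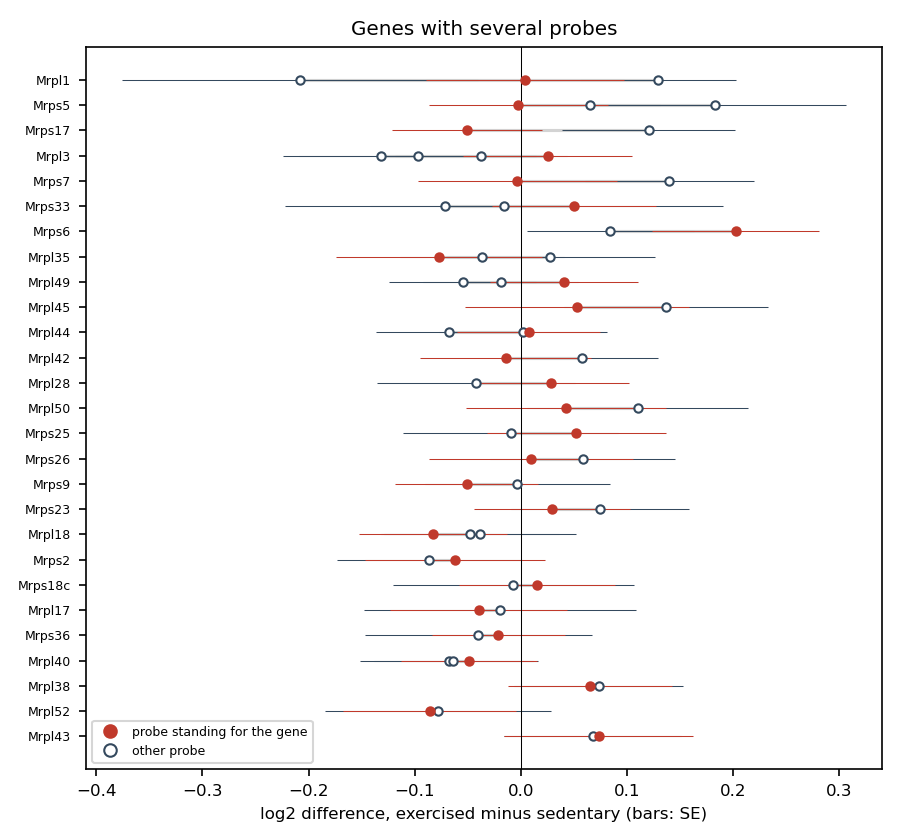
Log2 difference, exercised minus sedentary, of each kept probe (points, with SE) for the 27 mitochondrial ribosomal protein genes with 2 or more probes; filled points are the probes that stand for the gene. For 13 genes the probes fall on both sides of 0, and Mrpl1 has the widest spread.

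The genes that work with the mitochondrial ribosome came from lists of subunits, assembly factors, translation factors, tRNA synthetases and regulators. The 7 subunits that the name column of the array does not give as Mrpl or Mrps with a digit (Mrpl57 and Mrpl58 by their RefSeq symbols, and others such as Dap3 and Gadd45gip1) had 0 called and a median of -0.03 log2. Dap3, a GTP-binding small-subunit protein, had 4.87, 5.09 and 5.25 in exercised and 4.79, 4.92 and 5.01 in sedentary muscle (0.14 log2, adjusted p = 0.467). Its exercised values came from 5 arrays. Over the 36 alternatives given at the end, its difference ran from -0.48 to 0.63 log2 and kept its sign in 31. Gadd45gip1, a large-subunit protein, had 3.77, 3.87 and 4.06 in exercised and 3.86, 3.96 and 4.02 in sedentary muscle (-0.07 log2, adjusted p = 0.641).

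Of 28 measured assembly factors, 0 were called and 10 lay above 0, with a median of -0.0087 log2. The smallest p-values were those of Ybey, an endoribonuclease acting on ribosomal RNA (0.17 ± 0.06 log2, adjusted p = 0.172), and of Ddx55, a DEAD-box RNA helicase (-0.23 ± 0.09 log2, adjusted p = 0.192). Ybey ranged from 0.51 to 0.74 in exercised and from 0.33 to 0.55 in sedentary muscle. Of 16 translation factors, 0 were called. Tufm, the elongation factor that brings aminoacyl-tRNA to the ribosome, ranged from 5.52 to 5.82 in exercised and from 5.42 to 5.71 in sedentary muscle (0.03 log2, adjusted p = 0.894), and Mtif3, an initiation factor, differed by -0.12 log2 (adjusted p = 0.537). Of 17 mitochondrial tRNA synthetases, 0 were called and 10 lay above 0, with Hars2 (histidine; 0.16 ± 0.06 log2, adjusted p = 0.192) and Yars2 (tyrosine; 0.15 ± 0.07 log2, adjusted p = 0.288) at the smallest p-values.

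Of the 12 regulators of genes for mitochondrial proteins, 1 was called. Ppargc1a had 3.14, 3.46 and 4.37 in exercised and 1.41, 1.73 and 2.02 in sedentary muscle, with no overlap. It rose by 1.88 ± 0.21 log2 (adjusted p = 3.89e-04), and by 2.04 log2 with slide as a block (adjusted p = 6.71e-04). Its relative Ppargc1b differed by -0.31 ± 0.12 log2 without passing (adjusted p = 0.193). The factors that act with it did not pass: Nrf1 differed by 0.03 log2 (adjusted p = 0.926), Gabpa by -0.05 (adjusted p = 0.860) and the nuclear receptor Esrra by 0.07 (adjusted p = 0.754). Lrpprc, which stabilises mitochondrial mRNAs, differed by -0.08 log2 (adjusted p = 0.572). Tfam, which packages and transcribes mitochondrial DNA, gave no usable answer: its probe ranged from 6.00 to 7.84 in exercised and from 6.04 to 7.96 in sedentary arrays, and its difference of 0.13 ± 0.42 log2 became -0.43 with slide as a block.

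Other large gene families of the same kind were compared by count. Complex I genes (Nduf) had 0 of 45 called and a median of 0.00021 log2, and cytosolic ribosomal protein genes 0 of 76 called, 19 above 0 and a median of -0.05 log2. None of these families was tested against another.

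Slide moved with the members' level. Averaged over the 76 genes, each as its deviation from the 12-array mean, the exercised arrays stood at 0.02 on slide 1, at -0.14, -0.07 and 0.02 on slide 2 and at 0.05 and 0.11 on slide 3. The sedentary arrays stood at 0.01, 0.02 and 0.05 on slide 1, at -0.08 on slide 2 and at 0.00 and 0.01 on slide 3. The 3 lowest arrays of the 12, 2 exercised and 1 sedentary, were thus all on slide 2, and both exercised arrays of slide 3 were above both of its sedentary arrays. The same 3 arrays were the lowest for complex I genes, cytosolic ribosomal protein genes, translation factors and mitochondrial tRNA synthetases. In each of these lists, too, both exercised arrays of slide 3 were above both of its sedentary arrays. The members' median difference was -0.02 log2 within slide 1, 0.03 within slide 2 and 0.07 within slide 3. With slide as a block, 57 of the 76 genes lay above 0 (45.6% of the table did) and the median was 0.03 log2, but 0 members were called (2.13% of the table was), with 5 at an unadjusted p below 0.05. In that fit 38 of 45 complex I genes also lay above 0, and 33 of 76 cytosolic ribosomal protein genes. The same sign in all 3 slides was seen for 17 of the 76 genes (22.37%), against 36.67% of the whole table.

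**Figure D5:**
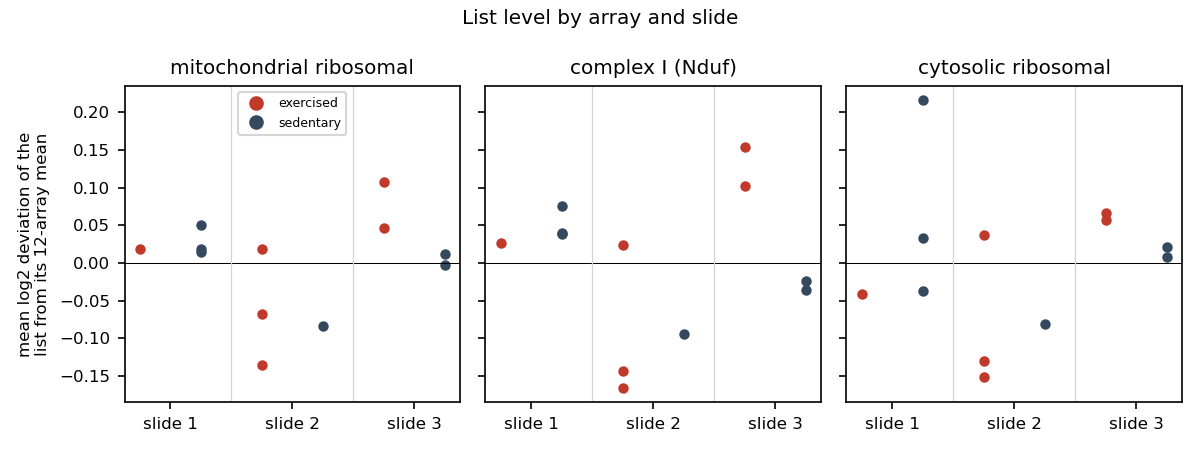
Mean log2 deviation of a gene list from its 12-array mean (vertical axis) for each array (points), by slide and group, for mitochondrial ribosomal, complex I and cytosolic ribosomal genes. Slide 2 holds the lowest arrays for each of the lists, and on slide 3 the exercised arrays lie above the sedentary ones in each.

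The sets named in the titles also differed in the members' median, which was 0.10 log2 in set 1 and -0.07 in set 2. Complex I genes had medians of 0.16 and -0.08, and cytosolic ribosomal protein genes 0.09 and -0.15. Both exercised arrays of set 1 lay on slide 3, and all exercised arrays of slide 2 were of set 2. No slide held exercised arrays of both sets, whereas sedentary arrays of both sets shared slides 1 and 3. Set and slide were thus mixed in part. The interaction test below did not include slide, so differences between sets and between slides were not separated. In limma's test of the interaction, 0 members and 0 entries of the table were called (0%), and 7 members had an unadjusted p below 0.05 (8.76% of the table). The smallest were Mrpl48 (0.24 log2 in set 1 and -0.30 in set 2, adjusted p = 0.520) and Mrpl54 (0.26 and -0.31, adjusted p = 0.520), chosen after their values were seen. Among the named genes, Mrps27 was one of the 7 (adjusted p = 0.540 for the interaction).

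Markers of the cells in the samples were compared beside these levels. The 14 muscle fibre genes were above background on all 12 arrays and 0 were called (median -0.12 log2). Brown adipocytes are rich in mitochondria, and 1 of 8 measured brown adipocyte genes was called: Ppara, which muscle also expresses, higher by 1.16 log2 (adjusted p = 0.00212). The mean level of that list, as deviation from the 12-array mean, ran from -0.58 to 1.04 in exercised and from -0.91 to 0.42 in sedentary arrays, and the list held larger differences that did not pass. Ucp1, its defining gene, was above background on 5 of 6 exercised and 2 of 6 sedentary arrays and differed by 4.35 ± 1.60 log2 (adjusted p = 0.180), the highest difference in the table. Cidea differed by 1.79 ± 0.76 log2 (adjusted p = 0.258). The rest of the list differed little: Dio2 by 0.18 log2, Prdm16 by 0.11, Cox7a1 by 0.01, Cox8b by -0.10 and Zic1 by -0.17. The median of the list was 0.14 log2. With the list's mean level as a covariate, the members' median was -0.07 log2 and 0 were called. The slow-fibre list ran from -0.48 to 1.14 in exercised and from -1.11 to 0.60 in sedentary arrays, with 0 of 9 called. Of 10 endothelial genes 3 were called lower, Kdr, Cldn5 and Egfl7, by -0.77, -0.87 and -0.57 log2 (the marker genes named here were chosen after their values were seen). With slide as a block Kdr kept its call (-0.82 log2, adjusted p = 0.0179), whereas Cldn5 (-0.80, adjusted p = 0.0705) and Egfl7 (-0.49, adjusted p = 0.0744) did not. Without the block, 7 endothelial genes were not called. Among them Pecam1, Vwf, Tie1 and Esam differed little, by -0.03, -0.04, -0.06 and 0.02 log2. Cdh5, Emcn and Tek differed by -0.26, -0.31 and -0.27 log2. Of 10 tendon genes 0 were called, with a median of 0.82 log2. Of 8 white adipocyte and 10 macrophage genes, 0 were called; with slide as a block 1 white adipocyte gene was, Plin4 (0.65 log2, adjusted p = 0.0229; without the block 0.49 log2, not called). With the slow-fibre list's mean level as a covariate, the members' median was 0.0021 log2 and 0 were called. The brown adipocyte level itself differed by group, with means of 0.46 in exercised and -0.46 in sedentary arrays. That list also holds Ppara, so its covariate fit cannot tell cell mixture from exercise. The part of the cell mixture in the members' levels was not tested.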

How the data were processed

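Per the file headers, the authors deposited spot intensity on a linear scale, as extracted with Agilent Feature Extraction 10.5.1.1 (the submitters' processing notes name version 9.1), with background subtracted and spatial trends removed per array; no scaling between arrays had been applied. Control spots and spots with outlier marks were left out, spots of 1 probe were averaged, and log2 signal was taken minus each array's 75th percentile. Probes well above background on at least 6 of 12 arrays were kept (22916). Genes were named through RefSeq accessions (26876 probes) or the file's own name, and the probe with the highest mean stood for the gene.

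Groups were compared in limma 3.58.1 under R 4.3.3, and tables were read with data.table (version 1.17.8). P-values had Benjamini-Hochberg adjustment over 16461 entries, and intervals are 95%. The procedure was run on simulated data with known changes. Those values were drawn independently for each gene and without slide effects, so they do not bear on shifts by slide. Array number limits the precision. The members, lists and alternatives were chosen with earlier results of these data known. Named members are, in each subunit, the 4 largest differences in each direction and the 4 smallest p-values; other named genes are the 2 smallest p-values of each list on mitochondrial translation and 8 genes chosen by name. A list level is the mean deviation of its genes from their 12-array means. Positions (mm9) were not checked against a sequence. Alternatives were slide, set and shared number as blocks, other scalings, background corrections, probe filters, probe choices, variance models, array weights, the values deposited as one matrix, covariates and each array left out in turn.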

Additional observations from a re-analysis of the deposited data

How the results depend on the processing

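Under all 36 alternatives 0 mitochondrial ribosomal protein genes were called, in either direction; the lowest adjusted p of a named member was 0.0889, and 0 to 6 members had an unadjusted p below 0.05. Their median log2 difference was -0.0028, and ran from -0.03 to 0.02 when each array was left out in turn. It was 0.0714 within slide 3 and 0.22 with normexp background correction. In that correction 4 arrays have 5 to 16 spots with very bright surroundings; with the local background limited (chosen after seeing the data) the median was 0.01 and 0 members were called. The count over the whole table, 604, moved more: 350 with slide as a block, 0, 8 and 0 within slides 1, 2 and 3, 0 with normexp, 317 with no filter on dim probes, 1011 at an adjusted p below 0.10, 299 without the 2 sedentary arrays whose slow-fibre level was low, 246 with the brown adipocyte level as a covariate, and 418 to 571 with 1 array left out. For the 8 arrays that share a title number with one of the other group, the correlations of deviations between same-numbered arrays were 0.150, -0.185, 0.119 and 0.283, so the numbers were not taken to pair the mice; with that number as a replicate block 29 entries were called, against 130 in the same 8 arrays without the block (added after seeing the data), and 0 members in both. Ppargc1a kept its direction in 36 of 36 alternatives and its call in 31. It was not called with the replicate block (adjusted p = 0.0538) or with normexp, nor within slides 1, 2 and 3, where its difference was 2.44, 1.53 and 2.14 log2. On slides 1 and 2 a group has 1 array, so only the size of the difference is read there. Within slide 3, with 2 arrays of each group, and with normexp, 0 entries of the whole table were called. The loss of the Ppargc1a call in these 2 fits was thus shared by every gene. Under the replicate block 29 entries were called, and Ppargc1a was not among them. A change smaller than the intervals given could not be seen with 6 arrays a group.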
